A study of Xenopus tropicalis with 12 samples.

Results

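Homeobox genes encode transcription factors that bind DNA through a homeodomain. In the vertebrate embryo their overlapping domains divide the neural tube from front to back and from top to bottom, and many stay on in mature neurons, where they keep up the identity of a cell type. In the forebrain, otp, rax, six3 and nkx2-1 mark the hypothalamus and the eye field, dlx and lhx6 genes mark inhibitory neurons of the subpallium, and gbx2, lhx9, irx and pou4f genes mark the thalamus, the habenula and the pretectum. The engrailed and paired-box genes mark the midbrain and its border with the hindbrain, and Hox genes give the hindbrain and spinal cord their axial levels.

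The genes described here are those whose deposited name belongs to the Hox, Lhx, Nkx, Dlx, Emx, Pax, Irx, Pitx, POU, sine oculis (six3 and its relatives), Engrailed, Gbx, Isl, Otp, Meis, Pbx, Barhl, Vax, Rax or Hmx families. They were taken by name, with no use of their levels, and where a name stood on several gene models the model with the most counts was kept. This gave 112 gene models with 119 names, out of 33875 models, of which 13749 had a name. In 6 cases 2 or 3 Hox genes share a model (13 names), so that their reads cannot be separated, and such models are written with a slash, as in hoxb3/hoxb6. The name search also brought in pou2af1, which codes for a coactivator of POU proteins, and pax1 and pax9, whose proteins lack a homeodomain. None of these 3 had enough counts to be tested.

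RNA was measured by sequencing in wild-type Xenopus tropicalis tadpoles and froglets, with no treatment named for any group. The tissue was a dissected piece of the middle of the brain that takes in thalamus, hypothalamus and preoptic area. The stages were NF50 (premetamorphosis), NF56 (prometamorphosis), NF62 (the climax of metamorphosis) and NF66 (its end), with 3 libraries each, called biological replicates by the submitters. NF50 libraries carry the numbers 1, 3 and 4 and the others 1, 2 and 3, and values are given in that order below. How many animals went into a library is not stated, and the p-values measure the spread between libraries. Totals ran from 12046529 (NF56 replicate 3) to 31029733 (NF66 replicate 3) expected counts.

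Levels of a gene across libraries are given as CPM, read counts scaled to the size of the library with TMM factors, and levels of different genes are set beside each other only as the deposited TPM, which accounts for gene length. Changes are log2 fold changes with ± their standard error, 3 libraries a stage, as fitted by edgeR under its quasi-likelihood model. A gene is said to have risen or fallen only where its Benjamini-Hochberg adjusted p over the 19584 models tested was under 0.05. In bulk tissue a smaller number of cells of a type and less RNA in each of them cannot be told apart.

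Each member was put in a group by its textbook site of expression, which is a label for the gene and not a measurement of where the RNA came from. By mean TPM over the 12 libraries the hypothalamic gene otp, needed for neuroendocrine neurons, was the highest of all members at 257. It was followed by the cofactor gene meis2 at 171, the thalamic and habenular LIM-homeobox gene lhx9 at 92.4, pou3f4 at 90.7 and the LIM-homeobox gene lhx1 at 76.3. Of the 112 models, 15 had a mean of 50 TPM or more, 30 lay between 10 and 50, 33 between 1 and 10, and 34 under 1. The median of the 19 thalamic, prethalamic and pretectal members was 26.6 TPM and that of the 12 hypothalamic members 8.27 TPM. The 24 hindbrain and spinal cord models, which are the Hox genes and isl2, had a median of 0.418 TPM and a highest value of 3.39 (hoxa2). Genes of the diencephalon, which the labelled dissection holds, thus stood above those of the hindbrain. The highest of the other groups were en2 in the midbrain and isthmus (42.7 TPM), nkx2-2 in the ventral neural tube (26.8), dlx1 among inhibitory neuron genes (54.5), lhx3 in the pituitary and placodes (2.93), and nkx1-1 among genes of other tissues (2.04).

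**Figure D1:**
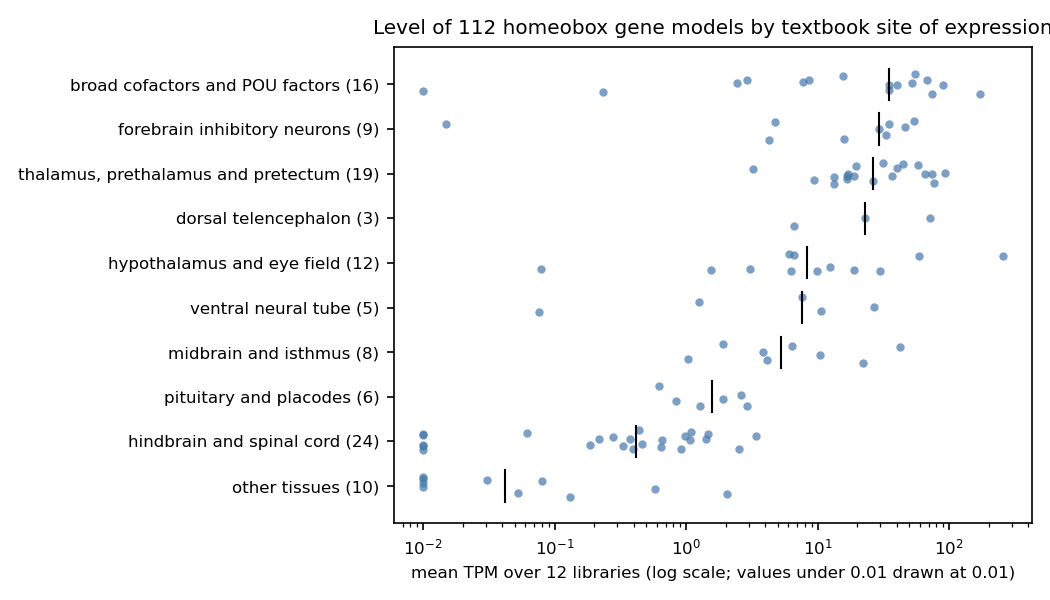
Mean TPM over 12 libraries (x axis, log scale) of the 112 homeobox gene models, grouped by the textbook site of expression (y axis, number of models in brackets); each point is a model and each black line a group's median. The cofactor, inhibitory neuron and thalamic groups have the highest medians, otp at 257 TPM is the highest point, and the Hox genes and the genes of other tissues lie lowest.

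Of the 112 models 90 had enough counts to be tested. The 22 that did not were 8 Hox models (hoxa10, hoxb1, hoxb9, hoxc3, hoxc12, hoxc13, hoxd1, hoxd9), 8 Nkx models (among them nkx2-3, nkx2-5, nkx2-6 and nkx6-3), dlx4, hmx1, pax1, pax9, pou2af1 and pou5f3.2. No count was found in any library for hoxb1, a gene of hindbrain segments, or for nkx2-5 and nkx2-6, which are known from the heart and pharynx. A count of 0 allows up to 3 counts, which is 0.0931 to 0.238 CPM in these libraries, and covers counting error only. The hoxb1 model is 198 bases long, so its lack of counts does not show that the gene was silent.

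More homeobox genes fell than rose over metamorphosis. Between NF50 and NF66, 44 of the 90 tested members fell and 7 rose, a share of 56.7% called against 36.7% of all models. Among all models the directions were nearly even, at 17.9% higher against 18.8% lower. The median change on the log2 scale was 0.02 over all models and -0.66 over the members. At NF56 against NF50, 6 members rose and 9 fell (16.7% called, against 14.5% of all models, 6.51% higher and 7.96% lower). At NF62 against NF56, 5 rose and 31 fell (40% called, against 18.9% of all models, 9.94% higher and 8.97% lower). At NF66 against NF62 the edgeR test called 0 of 90 (3.17% of all models, 1.38% higher and 1.79% lower). An unadjusted p under 0.05 was found for 12 of the 90 members, beside 3207 of the 19584 models. By DESeq2 1 member was called lower, beside 743 of all models. Across any of the stages 58 of the 90 differed (64.4%, against 39.6% of all models). By stage mean, 41 of the 90 had their highest level at NF50 (45.6%), 30 at NF56 (33.3%), 12 at NF62 (13.3%) and 7 at NF66 (7.78%). Of all models 33.4%, 20.2%, 20.9% and 25.4% were highest at these stages.

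These counts depend on the scaling and on a few libraries. By limma on log2(TPM + 1) with no scaling, which moved the median of all models by 0.32 at NF56 against NF50, 3 members were higher and 0 lower in that comparison, where all models split 315 to 123. On the same measure the members split 2 to 1 at NF62 against NF56 (all models 171 to 291), 0 to 0 at NF66 against NF62 (1 to 2) and 9 to 19 at NF66 against NF50 (3543 to 972). Falls against NF50 are therefore relative to the other genes. By the summed TPM of the members NF50 replicate 4 was the lowest library, at 1451 beside 2346 and 2517 in NF50 replicates 1 and 3. Its part in the shift of the median was not tested. At NF62 against NF56 the median of the members was -0.424 with scaling and -0.369 without, so there the unscaled fit lost calls with little change in size. The call of pou4f1.2 at NF56 was the only one whose sign turned. NF56 replicates 2 and 3 and NF62 replicate 2 stood apart from their stage in Hox reads, as given below. Without them, an alternative chosen after seeing the data, 1 member rose and 1 fell at NF56, 1 rose and 9 fell at NF62 against NF56, and 6 rose and 46 fell at NF66 against NF50. That leaves NF56 with 1 library, assumed to vary like the other stages. Calls in the comparisons with NF56 were lost over all models as well, so their loss is not read as a trait of the members. Of the 51 calls between NF50 and NF66, 47 were kept, and of the 36 between NF56 and NF62, 9 (among them en2, irx3, irx5, lhx2, pax3, pou3f2 and vax2).

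**Figure D2:**
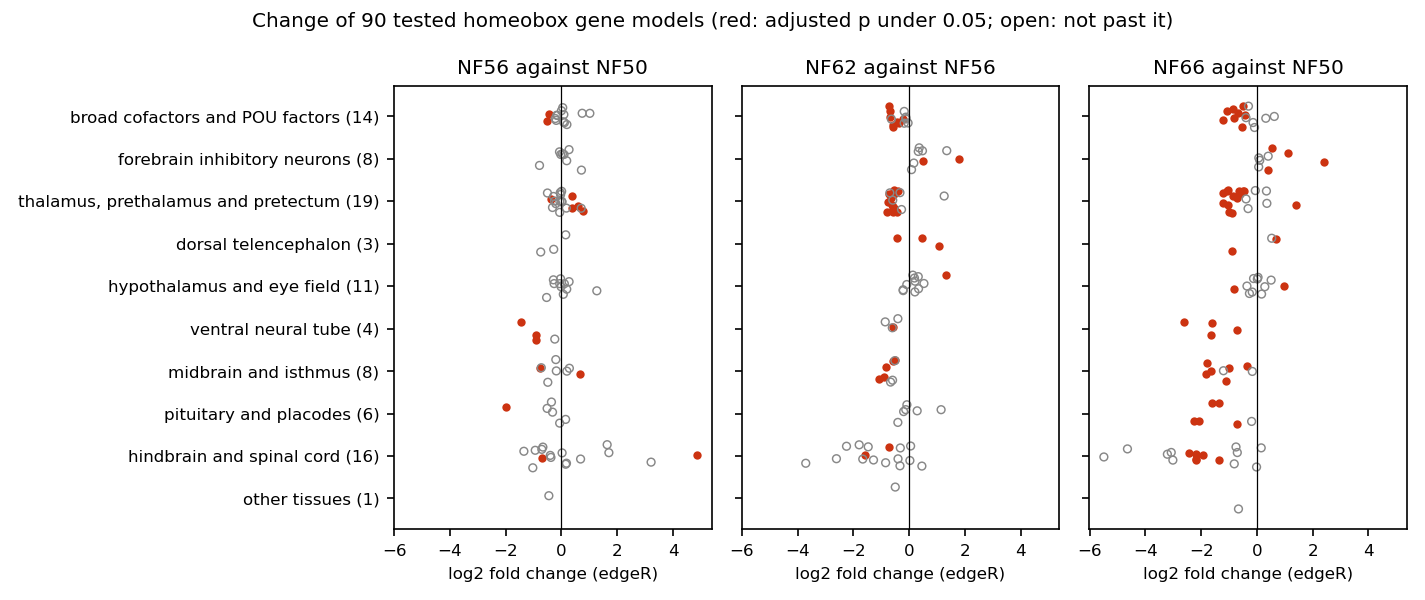
Log2 fold change (x axis) of the 90 tested homeobox models by textbook site of expression (y axis, number tested in brackets), in 3 comparisons; red points passed an adjusted p of 0.05 and open points did not. The red points lie mostly left of 0 at NF62 against NF56 (31 of 36) and at NF66 against NF50 (44 of 51), and those of the inhibitory neuron group lie right of 0.

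Genes of the thalamus, prethalamus and pretectum, the largest group tested, had the most falls at NF62 against NF56 and at NF66 against NF50. Of 19 tested members 18 differed across the stages, against 39.6% of all models. At NF62 against NF56 14 fell with none rising, where 8.97% of all models were lower. At NF66 13 were lower and 1 higher than at NF50, beside 18.8% and 17.9% of all models. The median log2 fold change was -0.56 at NF62 against NF56 and -0.64 at NF66 against NF50, beside -0.42 and -0.66 over all members. Their summed level was 828 to 872 CPM at NF50, 876 to 921 at NF56, 584 to 664 at NF62 and 557 to 632 at NF66, so the later stages did not overlap the earlier ones.

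Among the Iroquois genes, which set diencephalic borders in vertebrate embryos, irx3 stood at 27.6, 26.7 and 23.9 CPM at NF50, 24.4, 19.8 and 21.6 at NF56, 11.8, 13.3 and 13.3 at NF62 and 12.2, 10.7 and 10.9 at NF66. The NF50 and NF56 libraries were all above those of NF62 and NF66, and irx3 fell at NF62 (log2 fold change -0.77 ± 0.10, adjusted p = 0.000498) and was lower at NF66 than at NF50 (log2 fold change -1.20 ± 0.10, adjusted p = 6.85e-06). Its cluster neighbour irx5 held 32.5, 36.5 and 33.5 CPM at NF50, 35.3, 30 and 34.2 at NF56, 16.4, 19.9 and 20.2 at NF62 and 19.4, 15.3 and 15.6 at NF66. It too fell in 1 step, at NF62 (log2 fold change -0.81 ± 0.12, adjusted p = 0.000802), with no overlap between NF56 and NF62. The genes of the other Iroquois cluster, irx1 (-0.71 ± 0.11, adjusted p = 0.00166) and irx2 (-0.55 ± 0.10), fell at NF62 as well, and irx4 was lower at NF66 than at NF50 (-0.88 ± 0.21) without passing at NF62 (-0.59 ± 0.21, adjusted p = 0.0767).

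The LIM-homeobox genes of this group did not all move alike. For lhx1 the values were 111, 111 and 101 CPM at NF50, 99.5, 103 and 108 at NF56, 66.4, 71.7 and 69.1 at NF62 and 76.9, 51.4 and 68 at NF66, and all libraries of the later stages lay below those of the earlier ones (log2 fold change -0.59 ± 0.12, adjusted p = 0.00526 at NF62 against NF56). Its relative lhx5 held 51.3, 50.9 and 47.5 CPM at NF50, 40.9, 39.2 and 42.7 at NF56, 27.1, 23.2 and 29.5 at NF62 and 29.9, 16.2 and 27.7 at NF66 and was lower at NF66 than at NF50 (log2 fold change -1.02 ± 0.18, adjusted p = 0.00113). The gene lhx2, which takes part in forming the eye and the thalamus, read 59.1, 57.5 and 60.4 CPM at NF50, 68.2, 66.4 and 65 at NF56, 44, 47.1 and 45.6 at NF62 and 39.1, 44.2 and 46 at NF66. Its NF56 libraries were the highest, and it fell at NF62 (log2 fold change -0.55 ± 0.07, adjusted p = 0.000269). For lhx9 the levels were 143, 136 and 130.1 CPM at NF50, 178, 164 and 182 at NF56, 131, 157 and 146 at NF62 and 138, 142 and 114 at NF66. It rose at NF56 (log2 fold change 0.36 ± 0.09, adjusted p = 0.0237) and at NF66 was near its starting level (-0.06 ± 0.09, adjusted p = 0.681). The rise of lhx9 was lost without any of the NF50 libraries or NF56 replicate 1 or 3, with log2 values of 0.31 to 0.40.

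The gastrulation brain homeobox genes, of which gbx2 is needed for the thalamus and for the border of midbrain and hindbrain, went the other way at NF56. For gbx2.1 the libraries read 29.9, 25.6 and 26.3 CPM at NF50, 42.1, 50.9 and 45.7 at NF56, 32.2, 40.5 and 37.5 at NF62 and 39.9, 36.3 and 28.8 at NF66. Every NF56 library was above every NF50 library, and gbx2.1 rose (log2 fold change 0.76 ± 0.13, adjusted p = 0.00367). Its neighbour on the chromosome gbx2.2 held 8.2, 10.8 and 8.06 CPM at NF50, 12.2, 14.6 and 14.1 at NF56, 11, 10.3 and 9.67 at NF62 and 12, 11.4 and 11 at NF66 and rose too (log2 fold change 0.60 ± 0.13, adjusted p = 0.0106). That call was lost without NF50 replicate 1, and gbx2.2 then fell at NF62 (-0.40 ± 0.13, adjusted p = 0.0479). Neither was past the threshold at NF66 against NF50 (0.36 ± 0.13, adjusted p = 0.0513, for gbx2.1). The low gene gbx1 was the 1 member of the group that was higher at NF66 than at NF50 (1.41 ± 0.47, adjusted p = 0.0353). Its libraries held 0.546, 0.195 and 0.342 CPM at NF50, 0.368, 0.291 and 0.238 at NF56, 0.713, 0.53 and 0.984 at NF62 and 0.554, 1.52 and 0.807 at NF66, and the call was lost without NF50 replicate 3 or 4, NF62 replicate 1 or NF66 replicate 2 (log2 0.95 to 1.82).

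Of the other members, barhl2, a gene of the border between prethalamus and thalamus, read 70.1, 67.2 and 73.1 CPM at NF50, 58.1, 58.1 and 51.9 at NF56, 31.1, 40.6 and 40.7 at NF62 and 34.3, 40.8 and 30.5 at NF66. It fell at NF62 (log2 fold change -0.58 ± 0.12, adjusted p = 0.00703) and its NF66 libraries were all below those of NF50 and NF56. The eye and prethalamus gene pax6 held 54.5, 47.4 and 51.7 CPM at NF50, 47.6, 58.7 and 49.3 at NF56, 36, 42.3 and 35.5 at NF62 and 39.7, 38.1 and 32 at NF66 and was lower at NF66 than at NF50 (log2 fold change -0.49 ± 0.11, adjusted p = 0.00534). The habenular and sensory neuron genes pou4f1 (-0.86 ± 0.11) and pou4f1.2 (-1.23 ± 0.11) were lower at NF66 than at NF50. The retinal ganglion cell and tectal gene pou4f2 held 38, 47.3 and 43.2 CPM at NF50, 60.8, 50.9 and 56.8 at NF56, 37.3, 38 and 46.9 at NF62 and 33.5, 37.5 and 32.4 at NF66 and rose at NF56 (log2 fold change 0.39 ± 0.11, adjusted p = 0.0429) before falling at NF62 (-0.46 ± 0.11). Of the 14 falls at NF62, 9 held with any 1 library left out. Those of gbx2.2, lhx5, pax6 and pou4f2 were among the ones that did not, with log2 values over these fits of -0.48 to -0.35, -0.70 to -0.53, -0.54 to -0.35 and -0.58 to -0.40. The libraries whose loss ended a call were 9 of the 12 for gbx2.2 (all but NF50 replicates 3 and 4 and NF56 replicate 1), the NF50, NF56 and NF62 libraries for lhx5, NF56 replicate 2 and NF62 replicates 1 and 3 for pax6, and NF56 replicate 1 and NF62 replicates 1 and 2 for pou4f2. The rise of pou4f2 at NF56 (0.31 to 0.46) was lost without NF50 replicate 1 or 4, NF56 replicate 1 or 3, NF62 replicate 1 or NF66 replicate 1. The Barhl gene barhl1, whose libraries ran from 4.98 to 19.5 CPM, was the 1 member that passed in no test.

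**Figure D3:**
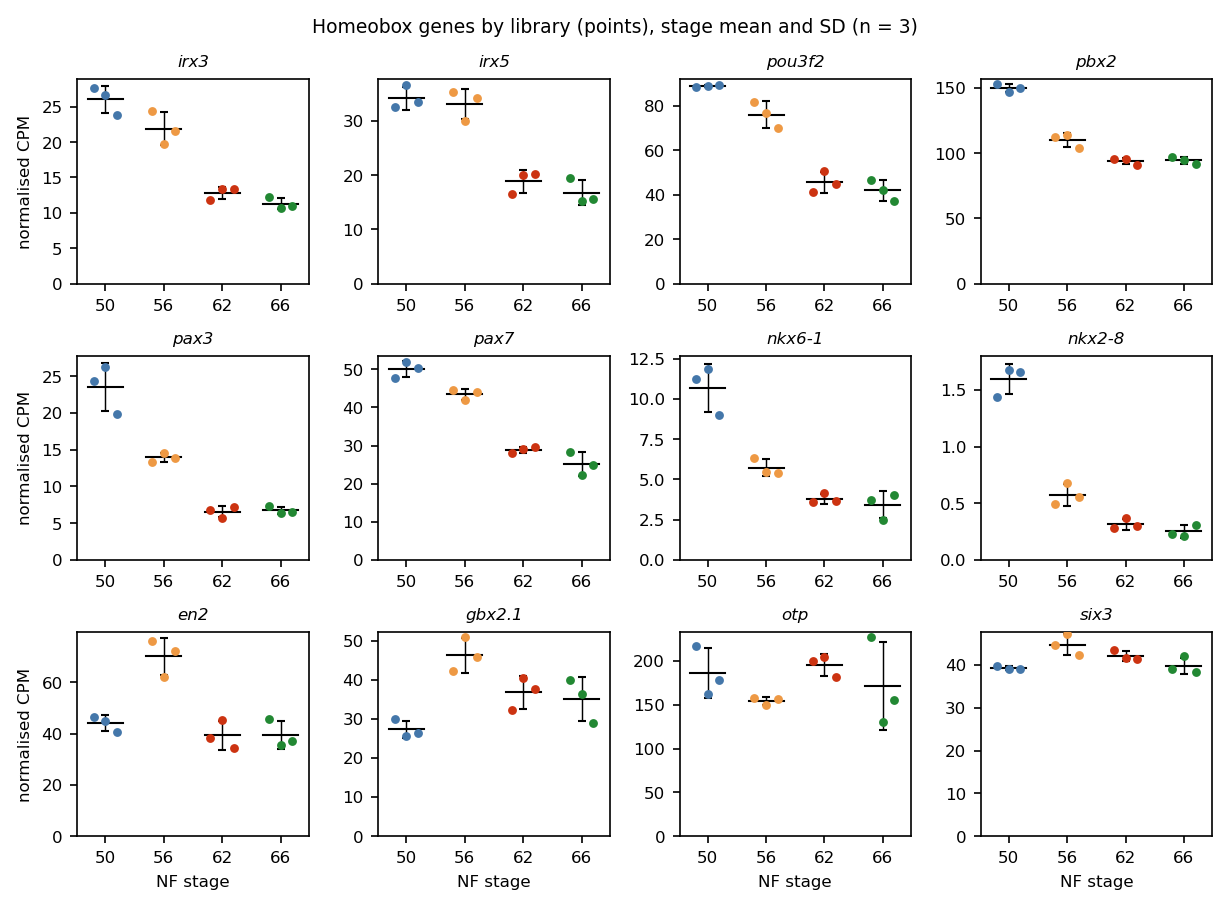
Normalised CPM (y axes, from 0) of 12 homeobox genes by NF stage (x axes); points are the 3 libraries of a stage in the order of their numbers, horizontal lines the means and bars the SD. For irx3, irx5 and pou3f2 the drop lies between NF56 and NF62, for nkx2-8 the larger one lies between NF50 and NF56, en2 and gbx2.1 peak at NF56, and otp and six3 show no change past the threshold.

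The cofactor and POU genes, which are used widely in the nervous system, also fell. Of 14 tested, 2 fell at NF56, 8 at NF62 against NF56 and 8 between NF50 and NF66, and none rose in any comparison. The share called was 57.1% at NF62 against NF56 (18.9% of all models) and between NF50 and NF66 (36.7%), whereas the 14.3% at NF56 was near the 14.5% of all models. The POU gene pou3f2 (Brn2), known in mammals for its role in hypothalamic neuroendocrine neurons, held 88.5, 88.7 and 89.1 CPM at NF50, 81.6, 76.6 and 69.8 at NF56, 41.2, 50.8 and 44.6 at NF62 and 46.5, 42.2 and 37.1 at NF66. Its NF62 and NF66 libraries were all below those of NF56, and it fell at NF62 (log2 fold change -0.74 ± 0.10, adjusted p = 0.000482) to a log2 fold change of -1.08 ± 0.10 at NF66 against NF50. The sister genes pou3f1 (-0.70 ± 0.06) and pou3f4 (-0.70 ± 0.09) fell by a like amount at NF62. For pou3f3 the change at NF62 was -0.58 ± 0.16 (-0.67 to -0.48 with 1 library left out), a call lost without NF56 replicate 1 or 3 or NF62 replicate 1 or 2.

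The Pbx and Meis proteins bind DNA together with Hox and other homeodomain proteins. The gene pbx2 held 153, 147 and 150.1 CPM at NF50, 112, 114 and 104 at NF56, 95.1, 95.1 and 91 at NF62 and 96.8, 95 and 91.3 at NF66. It fell at NF56 (log2 fold change -0.45 ± 0.05, adjusted p = 0.000351) and again at NF62 (-0.23 ± 0.05), and the NF50 libraries stood above all others. By contrast pbx3, at 148 to 200 CPM over all libraries, was not called in any comparison, nor was meis2, at 200 to 255 CPM. For meis1 the values were 59.9, 58.5 and 55.5 CPM at NF50, 59.8, 55 and 58.9 at NF56, 45, 45.3 and 45 at NF62 and 45.4, 37.9 and 40.9 at NF66, with a fall at NF62 (log2 fold change -0.36 ± 0.07, adjusted p = 0.00463). The gene meis3, known in Xenopus embryos for its part in hindbrain formation, fell at NF56 (-0.53 ± 0.13) and at NF62 (-0.58 ± 0.13). Its call at NF56 was lost without NF50 replicate 1 or any NF56 library (-0.57 to -0.48). The POU gene pou6f1 was lower at NF66 than at NF50 (-0.42 ± 0.07, adjusted p = 0.000808). The low members pou2f1 and pou5f3.1 passed in no comparison.

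Midbrain and isthmus genes fell in 6 of 8 cases between NF50 and NF66, and in 5 of 8 at NF62 against NF56. Of all models 18.8% and 8.97% were lower in these comparisons. The paired-box gene pax3, which marks dorsal progenitors, read 24.3, 26.2 and 19.9 CPM at NF50, 13.4, 14.5 and 13.9 at NF56, 6.73, 5.75 and 7.19 at NF62 and 7.29, 6.4 and 6.45 at NF66. The libraries of NF50, NF56 and NF62 did not overlap, and pax3 fell at both steps (log2 fold change -0.75 ± 0.12, adjusted p = 0.00265 at NF56 and log2 fold change -1.09 ± 0.13, adjusted p = 0.000218 at NF62). Its close relative pax7, known from the roof of the midbrain, held 47.8, 51.9 and 50.3 CPM at NF50, 44.5, 41.8 and 44 at NF56, 28, 29.1 and 29.5 at NF62 and 28.3, 22.2 and 25 at NF66. It was not past the threshold at NF56 (-0.20 ± 0.08, adjusted p = 0.132) and fell at NF62 (log2 fold change -0.59 ± 0.08, adjusted p = 0.000732). The engrailed gene en2, which is expressed around the midbrain-hindbrain border, had a peak, at 46.6, 44.9 and 40.7 CPM at NF50, 76.2, 62.1 and 72.1 at NF56, 38.1, 45.4 and 34.3 at NF62 and 45.6, 35.4 and 37.1 at NF66. All NF56 libraries were above those of the other stages, and en2 rose (log2 fold change 0.67 ± 0.13, adjusted p = 0.00571) and then fell (log2 fold change -0.84 ± 0.13, adjusted p = 0.00111) to a level at NF66 that did not pass against NF50 (-0.16 ± 0.13, adjusted p = 0.354). The calls of pax3 and en2 held with any 1 library left out.

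At lower levels en1 read 2.38, 1.68 and 1.71 CPM at NF50, 1.43, 1.12 and 0.874 at NF56, 0.792, 0.774 and 0.727 at NF62 and 1.25, 0.315 and 1.06 at NF66, with log2 fold change -1.11 ± 0.38, adjusted p = 0.042 at NF66 against NF50. This call for en1 was lost in 9 of the 12 fits that leave out 1 library (all but those without NF56 replicate 3, NF62 replicate 2 or NF66 replicate 1), with log2 values of -1.42 to -0.74. The gene pitx3, needed for dopamine neurons of the mammalian midbrain, held 5.41, 3.82 and 4.3 CPM at NF50, 3.23, 3.35 and 3.02 at NF56, 1.54, 2.2 and 1.41 at NF62 and 1.57, 1.68 and 1.12 at NF66. It was lower at NF66 than at NF50 (log2 fold change -1.64 ± 0.23, adjusted p = 0.000218). Its fall at NF62 (-0.90 ± 0.23) was lost without NF56 replicate 1 or 2 or NF62 replicate 1 or 3 (-1.11 to -0.77). Of the Pax2/5/8 subfamily, pax8 was lower at NF66 than at NF50 (-1.81 ± 0.30, adjusted p = 0.00068) and so was pax2 by a smaller amount (-0.36 ± 0.12, adjusted p = 0.0338). The pax2 call was lost without NF50 replicate 1 or 3 or NF66 replicate 2 or 3 (-0.47 to -0.30). The third, pax5, at 0.0524 to 0.874 CPM, was not called.

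All 4 tested genes of the ventral neural tube were lower at NF66 than at NF50, and 3 of the 4 fell at the step to NF56. The shares of all models that were lower were 18.8% and 7.96%. The Nkx6 gene nkx6-1, which specifies ventral progenitors, read 11.2, 11.8 and 8.99 CPM at NF50, 6.33, 5.44 and 5.4 at NF56, 3.56, 4.16 and 3.68 at NF62 and 3.74, 2.46 and 4.03 at NF66. All 3 NF50 libraries were above every later library, and it fell at NF56 (log2 fold change -0.90 ± 0.18, adjusted p = 0.00831). For nkx6-2, which is also expressed in the oligodendrocyte lineage, the values were 11.6, 11.5 and 12.6 CPM at NF50, 6.17, 6.36 and 6.52 at NF56, 4.12, 5.38 and 2.99 at NF62 and 4.71, 3.15 and 3.72 at NF66. It fell at NF56 (log2 fold change -0.90 ± 0.20, adjusted p = 0.0116), a call lost without NF56 replicate 1 (-0.95 to -0.87 over these fits). The low gene nkx2-8, known from the floor of the neural tube and the foregut, held 1.44, 1.68 and 1.66 CPM at NF50, 0.49, 0.68 and 0.556 at NF56, 0.277, 0.367 and 0.299 at NF62 and 0.231, 0.21 and 0.31 at NF66. Its NF50 libraries did not overlap any other, and it had the largest fall by fitted value among the genes called between NF50 and NF66 (log2 fold change -2.61 ± 0.27, adjusted p = 2.24e-05).

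The fourth gene, nkx2-2, which takes part in oligodendrocyte maturation, read 44.9, 36.7 and 37.1 CPM at NF50, 30.2, 38.8 and 31.5 at NF56, 23, 28.6 and 24.3 at NF62 and 30.3, 21.9 and 20.9 at NF66. It fell between NF50 and NF66 (log2 fold change -0.70 ± 0.16, adjusted p = 0.00481) and in no successive step. Markers of oligodendrocytes moved in the opposite direction. Of the 11 on the list, which also holds nkx2-2 and nkx6-2, 7 rose and 0 fell at NF62 against NF56 (9.94% of all models were higher). At NF66 against NF50 7 were higher (17.9% of all models), and the 2 homeobox genes nkx2-2 and nkx6-2 were lower. The summed level of the list was 1005 to 1156 CPM at NF50, 1151 to 1215 at NF56, 1691 to 2041 at NF62 and 1970 to 2797 at NF66. Markers of dividing cells mostly fell, 10 of 14 at NF56 (7.96% of all models were lower), where mcm2 rose, and 12 of 14 between NF50 and NF66 (18.8% of all models), where mcm2 and mcm6 were higher. Their summed levels were 504 to 523 CPM at NF50, 381 to 402 at NF56, 369 to 392 at NF62 and 358 to 373 at NF66. These sums do not follow most of the single markers. The median log2 fold change of the 14 was -1.27 at NF56, -1.49 at NF62 against NF56 and -3.17 at NF66 against NF50. Of 11 radial glia markers, among them pax6, 9 were lower at NF66 than at NF50, against 18.8% of all models. The part of such cells in the falls of homeobox genes was not tested.

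Among Hox genes the paralogue groups 1 to 4, expressed from the hindbrain back, were highest at NF50, and more posterior groups were high in a few libraries. The summed level of the 7 models of groups 1 to 4 was 9.39, 9.2 and 8.06 CPM at NF50, 5.43, 4.37 and 6.04 at NF56, 3.48, 2.85 and 3.59 at NF62 and 3.05, 1.68 and 1.89 at NF66. The libraries of NF50, NF56 and NF62 did not overlap, and those of NF62 and NF66 did. For hoxa2, which patterns the hindbrain and its neural crest, the values were 4.47, 4.25 and 3.37 CPM at NF50, 2.45, 1.89 and 1.91 at NF56, 1.7, 1.26 and 1.8 at NF62 and 1.66, 0.891 and 0.621 at NF66. Its NF50 libraries lay above all later ones, and it was lower at NF66 than at NF50 (log2 fold change -1.95 ± 0.32, adjusted p = 0.000646). The gene hoxb2 held 2.93, 2.77 and 2.88 CPM at NF50, 1.96, 1.7 and 1.59 at NF56, 1.23, 0.774 and 1.16 at NF62 and 0.739, 0.524 and 0.621 at NF66. It fell with no overlap between NF50 and NF56 and had a log2 fold change of -2.17 ± 0.23 at NF66 (adjusted p = 2.69e-05). Its calls at the single steps, -0.70 ± 0.21 at NF56 and -0.74 ± 0.22 at NF62, were lost in 10 and 9 of the 12 fits that leave out 1 library (-0.79 to -0.64 and -0.86 to -0.56). At NF56 these were all fits but those without NF62 or NF66 replicate 2, and at NF62 those without an NF50, NF56 or NF62 library.

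The next Hox genes are partly on shared models. A model of hoxa3 alone, with fewer counts than the shared one, read 4.62, 3.43 and 3.86 CPM at NF50, 2.9, 2.57 and 3.26 at NF56, 1.74, 1.83 and 1.2 at NF62 and 1.06, 1.15 and 1.15 at NF66. It was lower at NF66 than at NF50 (log2 fold change -1.82 ± 0.21, adjusted p = 5.09e-05). The shared models hoxb3/hoxb6 (-2.45 ± 0.50), hoxd3/hoxd4/hoxd10 (-2.18 ± 0.51) and hoxa3/hoxa7 (-2.17 ± 0.68) were lower at NF66 than at NF50, and their reads cannot be assigned to a paralogue group. The call of hoxa3/hoxa7 was lost without NF50 replicate 1 or 3 or NF66 replicate 2 or 3 (-2.69 to -1.79). Between NF56 and NF62, hoxb3/hoxb6 fell too (-1.59 ± 0.46), with overlapping libraries (3.02, 6.41 and 6.99 CPM against 1.58, 3.18 and 0.642). Leaving out NF50 or NF66 replicate 1, either of NF56 replicates 2 and 3, or either of NF62 replicates 1 and 3 ended that call (-2.27 to -1.19).

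Groups 5 to 8, whose expression begins in the spinal cord, had a summed level over 5 models of 2.04, 1.21 and 1.86 CPM at NF50, 2.74, 8.55 and 12.7 at NF56, 0.356, 4.44 and 0.385 at NF62 and 0.416, 0.262 and 0.372 at NF66. It was thus high in NF56 replicates 2 and 3 and in NF62 replicate 2, and at or under 0.416 CPM in the other 2 NF62 libraries and all NF66 libraries. The same 3 libraries led for hoxb7/hoxb8, at 0.348, 0.234 and 0.587 CPM at NF50, 1.59, 4.57 and 4.77 at NF56, 0, 1.71 and 0.0428 at NF62 and 0, 0.0524 and 0.0621 at NF66, and for hoxb5, at 0.745, 0.273 and 0.44 CPM at NF50, 0.245, 2.14 and 2.46 at NF56, 0, 1.47 and 0 at NF62 and 0.0462, 0 and 0 at NF66. Neither passed between any 2 of the stages compared in the main edgeR fit. In the unscaled limma fit hoxb7/hoxb8 was called higher at NF56 against NF50 (1.94, adjusted p = 0.0274). That fit also called it lower at NF62 against NF56 (-1.87, adjusted p = 0.0302). For hoxc6 the levels were 0.0993, 0 and 0.0489 CPM at NF50, 0.49, 0.826 and 3.42 at NF56, 0, 0.326 and 0 at NF62 and 0, 0 and 0 at NF66, and it was called higher at NF56 than at NF50 (adjusted p = 0.0441). With 1 or 2 reads in an NF50 library at most the fitted fold is not given. The hoxc6 call was lost in DESeq2 and without any of the NF50 or NF56 libraries. These 3 libraries are not those highest in hoxa2 or hoxb2 within their stage, and why they hold more posterior Hox reads was not tested. The remaining tested models of the group, hoxb4, hoxc5, hoxd8, hoxd13, hoxa11/hoxa13, hoxc8/hoxc11 and the motor neuron gene isl2, were not called.

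**Figure D4:**
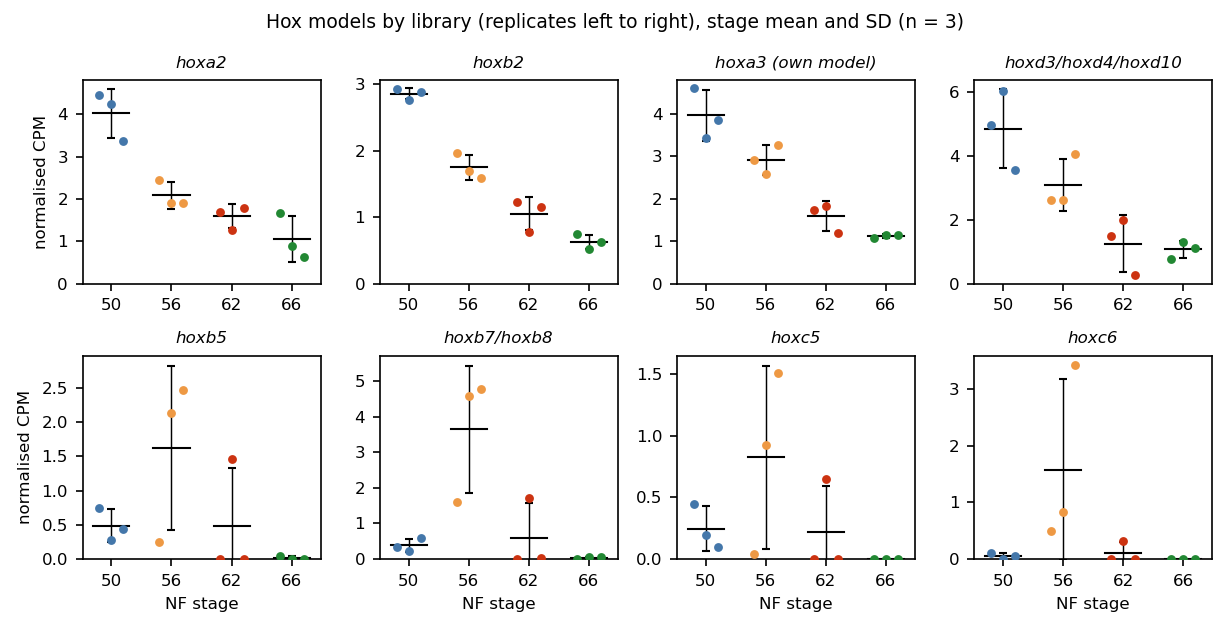
Normalised CPM (y axes, from 0) of 8 Hox models by NF stage (x axes); points are the 3 libraries of a stage in the order of their numbers, lines the means and bars the SD, cut off at 0. The upper row (hoxa2, hoxb2, hoxa3 and the shared model hoxd3/hoxd4/hoxd10) is highest at NF50 by mean, and the lower row (groups 5 to 8) is high in NF56 replicate 3, in most panels in NF56 replicate 2 and, alone within its stage, in NF62 replicate 2.

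Genes of the pituitary and the placodes were low, and 5 of the 6 were lower at NF66 than at NF50 (18.8% of all models were). The LIM-homeobox gene lhx3, needed to form the pituitary, read 2.98, 3.08 and 1.86 CPM at NF50, 2.37, 1.6 and 1.51 at NF56, 1.03, 1.59 and 2.48 at NF62 and 1.06, 0.891 and 1.12 at NF66. Its NF66 libraries were below those of NF50, with log2 fold change -1.36 ± 0.34, adjusted p = 0.00836. The gene pou1f1 (Pit1), which drives growth hormone, prolactin and thyrotropin cells, held 1.14, 1.33 and 0.831 CPM at NF50, 0.817, 0.826 and 1.03 at NF56, 0.436, 1.18 and 1.63 at NF62 and 0.185, 0.21 and 0.621 at NF66. It was lower at NF66 than at NF50 (log2 fold change -1.60 ± 0.53, adjusted p = 0.0345), and the call was lost without NF50 replicate 1 or 3 or NF66 replicate 1 or 2 (-2.46 to -1.32). The placode genes six2 (-2.25 ± 0.45) and six4 (-0.70 ± 0.19) were also lower at NF66, whereas pitx1, at 3.63 to 7.01 CPM, was not called.

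Reads of the pituitary hormone genes gh1, pomc and cga were found in all libraries, and tshb and lhb were each at 0 in 2. Growth hormone, gh1, held 59.8, 51.3 and 28.3 CPM at NF50, 37.1, 34.6 and 36.3 at NF56, 12.2, 13.1 and 22.1 at NF62 and 4.11, 4.82 and 5.71 at NF66. Of the 8 tested pituitary markers 3, gh1, pomc and cga, were lower at NF66 than at NF50 with none higher. That share of 37.5% stood beside 18.8% of all models that were lower and 36.7% called in either direction. The markers' summed level was 288 to 358 CPM at NF50, 250 to 264 at NF56, 232 to 273 at NF62 and 236 to 277 at NF66. That sum also holds genes that were not called between NF50 and NF66, among them pcsk1, so it does not follow gh1, pomc and cga alone. In unscaled TPM pcsk1 held 36.89 to 61.75 at NF50 and 66.04 to 77.32 at NF66. On that measure the median log2 change of all models was 0.29, so these values are not read as a rise. The model prl.2 was at 0 in 5 of the 6 libraries of NF62 and NF66. The part of pituitary tissue in the fall of lhx3 and pou1f1 was not tested.

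Few hypothalamic and eye field genes changed. Of 11 tested members 1, vax2, differed across the stages, against 39.6% of all models. At NF66 against NF50 1 rose and 1 fell, beside 17.9% and 18.8% of all models. The neuroendocrine gene otp read 218, 163 and 178 CPM at NF50, 157, 149 and 157 at NF56, 200.2, 204 and 181 at NF62 and 228, 130.3 and 156 at NF66. The NF56 libraries were below those of NF50 and NF62, the other stages overlapped, and no comparison passed (-0.12 ± 0.17, adjusted p = 0.638, at NF66 against NF50). The eye field gene six3 held 39.7, 39.1 and 39 CPM at NF50, 44.7, 47.3 and 42.3 at NF56, 43.4, 41.5 and 41.5 at NF62 and 39.1, 42 and 38.3 at NF66, with NF56 above NF50 by less than the test asks and 0.02 ± 0.06 at NF66 against NF50 (adjusted p = 0.851). For nkx2-1, which specifies the ventral hypothalamus, the values were 13, 12.1 and 10.8 CPM at NF50, 7.44, 10.9 and 11.1 at NF56, 12.1, 9.5 and 12.3 at NF62 and 8.91, 9.23 and 11.6 at NF66, and no comparison passed either (-0.27 ± 0.18, adjusted p = 0.271).

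The others were less even among the libraries. The eye field gene six6 read 16.7, 12.5 and 12.9 CPM at NF50, 12.7, 16.6 and 12.3 at NF56, 16.3, 16.9 and 14.3 at NF62 and 15.1, 9.02 and 8.78 at NF66, so that NF66 replicates 2 and 3 were the lowest of all, without passing (-0.53 ± 0.21 at NF66 against NF62, adjusted p = 0.236). For vax1, a gene of the optic stalk and preoptic area, the libraries held 3.08, 3.16 and 2.35 CPM at NF50, 2.37, 3.55 and 4.61 at NF56, 5.9, 2.85 and 6.25 at NF62 and 5.03, 1.47 and 3.91 at NF66, with the lowest value in NF66 replicate 2. The genes hmx3 (10.1 to 18.3 CPM) and hmx2 (1.75 to 2.98), known from the inner ear and the hypothalamus, and six3.2 (0.695 to 3.26) and nkx2-4 (2.57 to 8.81) were not called. The early eye gene rax was low, at 0.546, 0.741 and 0.831 CPM at NF50, 0.449, 0.534 and 0.477 at NF56, 0.594, 0.408 and 0.599 at NF62 and 0.462, 0.315 and 0.403 at NF66. It was called lower at NF66 than at NF50 (log2 fold change -0.83 ± 0.29, adjusted p = 0.044), but this was lost in 10 of the 12 fits without 1 library (all but those without NF50 replicate 1 or NF62 replicate 2; -0.98 to -0.71).

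The exception in the group was vax2, which marks the ventral eye and is related to vax1. It read 5.36, 3.51 and 4.55 CPM at NF50, 4.7, 4.47 and 5.24 at NF56, 12.9, 10.6 and 12.1 at NF62 and 8.86, 7.81 and 9.84 at NF66. Every NF62 and NF66 library was above every NF50 and NF56 library, and vax2 rose at NF62 (log2 fold change 1.31 ± 0.16, adjusted p = 0.000365) and was still higher at NF66 than at NF50 (log2 fold change 0.99 ± 0.16, adjusted p = 0.000677). Both calls held in all 12 fits that leave out 1 library and without the 3 libraries high in posterior Hox reads.

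The group labelled as forebrain inhibitory neurons, in which lhx8 and isl1 are counted too, had rises and no falls. Of 8 tested, 2 rose at NF62 against NF56 and 4 were higher at NF66 than at NF50, and none was lower. The gene lhx8 was among the rises in both comparisons. The shares of all models that were higher in these comparisons were 9.94% and 17.9%. The gene dlx5, of the distal-less family that specifies inhibitory neurons, read 31.1, 26.3 and 31.1 CPM at NF50, 28.4, 33.1 and 32.9 at NF56, 46.6, 45.7 and 39.9 at NF62 and 36.1, 51.7 and 41 at NF66. It rose at NF62 (log2 fold change 0.49 ± 0.13, adjusted p = 0.0239) and was higher at NF66 than at NF50 (log2 fold change 0.54 ± 0.13, adjusted p = 0.00724), where the libraries did not overlap. The step at NF62 was lost without NF56 replicate 1 or NF62 replicate 1 or 2 (0.42 to 0.56). For dlx1 the levels were 58.3, 45 and 54.1 CPM at NF50, 59.4, 68.5 and 61.8 at NF56, 83.6, 73.3 and 86.6 at NF62 and 59.3, 71.8 and 77.5 at NF66, with log2 fold change 0.41 ± 0.12, adjusted p = 0.02 at NF66 against NF50, a call lost without NF50 replicate 3 or 4 or NF66 replicate 2 or 3 (0.29 to 0.51). The family members dlx2, dlx3 and dlx6 and the LIM-homeobox gene isl1 were not called between any 2 of the stages compared. For dlx2 the libraries held 47.6, 36.6 and 41.8 CPM at NF50, 34.4, 43.1 and 42.6 at NF56, 57.7, 44.2 and 48.4 at NF62 and 37.1, 42.6 and 52.4 at NF66, with NF62 above NF56 but not past the threshold (0.33 ± 0.15, adjusted p = 0.176). For isl1 the values were 26.8, 22.2 and 23.6 CPM at NF50, 28.2, 30.4 and 23.8 at NF56, 29, 32.3 and 26.2 at NF62 and 25.6, 29.8 and 22.7 at NF66, and the stages compared overlapped.

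The LIM-homeobox genes lhx6 and lhx8 are made in the ventral telencephalon, lhx6 in migrating interneurons and lhx8 in cholinergic neurons as known from mammals. For lhx6 the libraries held 2.88, 3.2 and 2.88 CPM at NF50, 4.45, 2.82 and 7.79 at NF56, 17.5, 4.48 and 15.5 at NF62 and 7.76, 10.9 and 29 at NF66. The NF66 libraries lay above those of NF50 and spread widely, and lhx6 was higher at NF66 than at NF50 (log2 fold change 2.42 ± 0.60, adjusted p = 0.00861). For lhx8 the values were 8.59, 5.65 and 6.7 CPM at NF50, 3.55, 4.23 and 4.37 at NF56, 13.7, 10.8 and 17 at NF62 and 7.29, 21.3 and 17 at NF66. All NF62 libraries were above all NF56 libraries, and lhx8 rose (log2 fold change 1.78 ± 0.35, adjusted p = 0.00472). At NF66 against NF50 lhx8 was called higher (log2 fold change 1.13 ± 0.33, adjusted p = 0.0203) although the libraries overlapped, and this was lost without NF50 replicate 3 or 4 or NF66 replicate 2 or 3 (0.81 to 1.46).

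The Emx genes mark the dorsal telencephalon. The gene emx1.2 read 3.03, 2.22 and 3.76 CPM at NF50, 1.35, 2.14 and 1.91 at NF56, 4.51, 3.99 and 2.87 at NF62 and 2.59, 4.82 and 5.55 at NF66. It rose at NF62 against NF56 (log2 fold change 1.09 ± 0.33, adjusted p = 0.0394), a call lost without NF50 replicate 1, any NF56 library or NF62 replicate 1 or 2 (0.90 to 1.25), and it was not called between NF50 and NF66 (0.53 ± 0.31, adjusted p = 0.213). By contrast emx2, which is also expressed outside the telencephalon, fell over the stages, at 31.9, 29.9 and 32.5 CPM at NF50, 26.1, 27 and 24.6 at NF56, 17.3, 21.2 and 18.4 at NF62 and 18.1, 15.3 and 17 at NF66. Its later libraries were all below the earlier ones (log2 fold change -0.90 ± 0.09, adjusted p = 2.5e-05 at NF66 against NF50). A model named emx1.3 held 39.7, 36.2 and 40 CPM at NF50, 42.3, 45.4 and 40.9 at NF56, 59.7, 65.6 and 53.7 at NF62 and 55.2, 69.1 and 61.6 at NF66 and rose at NF62 (log2 fold change 0.48 ± 0.10, adjusted p = 0.00571). That model also carries the name prr15, and a further model named emx1.3, at 19.9 to 58.6 CPM, was not called (0.29 ± 0.31, adjusted p = 0.503 at NF66 against NF50), so the rise is not read as that of an Emx gene. The model with the rise is still among the rises counted above at NF62 against NF56 and at NF66 against NF50.

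The T-box gene tbr1, which marks neurons of the dorsal telencephalon and is no homeobox gene, stood beside these rises at 14.5, 11 and 14.2 CPM at NF50, 7.56, 9.86 and 11.6 at NF56, 18.7, 14.8 and 13.6 at NF62 and 13.2, 19 and 18.1 at NF66. Its NF62 libraries were all above those of NF56 (log2 fold change 0.70 ± 0.20, adjusted p = 0.0301), and it was not called between NF50 and NF66 (0.34 ± 0.19, adjusted p = 0.198). At NF62, replicate 2 was the lowest of its stage for lhx6 and lhx8, and at NF66, replicate 1 was the lowest for tbr1, lhx6, lhx8, emx1.2 and dlx5. By contrast vax2 was lowest at NF66 in replicate 2. The share of telencephalic tissue in each dissection was not tested as a part of these rises. The gene tbr1 was chosen for this after its values were seen.

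**Figure D5:**
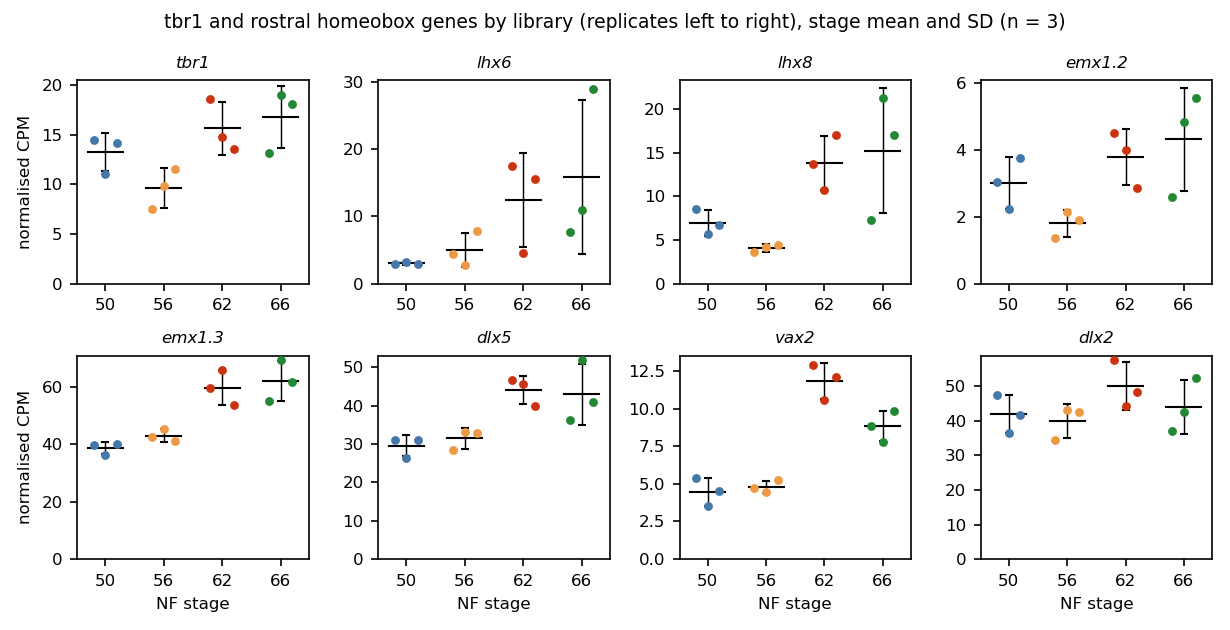
Normalised CPM (y axes, from 0) of the telencephalic gene tbr1 and 7 models with homeobox names by NF stage (x axes). The model emx1.3 also carries the name prr15. Points are the 3 libraries of a stage in the order of their numbers, lines the means and bars the SD. The level of lhx8 at NF62 is above all NF50 and NF56 libraries, lhx6 spreads widely at NF62 and NF66, vax2 is tight within each stage and dlx2 overlaps between NF50 and NF66.

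Homeobox genes often lie next to a relative, and 23 pairs of tested members are neighbours in the RefSeq annotation (UCB_Xtro_10.0), 12 of them outside the Hox clusters. Some pairs within the clusters share a model with another pair. The fold changes of the 2 neighbours had the same sign in 16 pairs at NF56 against NF50, 19 at NF62 against NF56 and 20 at NF66 against NF50, and outside the Hox clusters in 7, 10 and 9 of 12. Over all pairs of tested members, neighbours or not, 50.3%, 60.4% and 62.6% had the same sign, beside 69.6%, 82.6% and 87% of the neighbours. Outside the Hox genes the shares were 50.8%, 59.1% and 59.1% of all pairs and 58.3%, 83.3% and 75% of the 12, and the difference was not tested. Both neighbours were called, with the same sign, in 7 of the 23 pairs between NF50 and NF66, 4 of them outside the Hox clusters, with irx3 and irx5, irx4 and irx2, and irx2 and irx1 among these. In that comparison 51 of the 90 tested members were called, 44 of them lower, so members that are no neighbours also form such pairs. Their share over all pairs was not counted, and the 7 are not read as a trait of neighbours. Other neighbours differed in sign, or in size with the same sign. In the pair of six3 and six2, six3 had a log2 fold change of 0.02 ± 0.06 and six2 of -2.25 ± 0.45, and in that of nkx2-1 and nkx2-8 the values were -0.27 ± 0.18 and -2.61 ± 0.27.

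Most of the other genes of neural patterning that changed also fell. Of 79 tested models on a list of other patterning genes, 3 rose and 20 fell at NF56, and 4 rose and 23 fell at NF62 against NF56. Between NF50 and NF66 5 rose and 46 fell, with a median log2 fold change of -0.64 and a range of -5.23 to 3.28. The shares called in the 3 comparisons were 29.1%, 34.2% and 64.6%, against 14.5%, 18.9% and 36.7% of all models. The 5 that rose are not named here. On that list 2 models are shared with ribosomal protein genes. Lower at NF66 than at NF50 were sonic hedgehog, shh (-1.15 ± 0.24, adjusted p = 0.0029), the signal of the ventral midline, its effector gli1 (-1.80 ± 0.23, adjusted p = 0.000115), the floor plate gene foxa2 (-1.81 ± 0.24, adjusted p = 0.00016) and the forebrain and midbrain gene otx2 (-1.46 ± 0.08, adjusted p = 3.16e-07). The thalamic gene tcf7l2 (-0.17 ± 0.11, adjusted p = 0.274) and the hypothalamic gene sim1 (0.27 ± 0.81, adjusted p = 0.837) were not called.

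Retinoic acid sets the borders of Hox expression in the embryo. Of 16 tested genes of its pathway, 3 were higher and 8 lower at NF66 than at NF50, and at NF62 against NF56 1 rose and 2 fell. At NF66 the share lower stood above the 18.8% of all models, whereas the share higher was near their 17.9%, and the 18.8% called at NF62 was near the 18.9% of all models. The synthesis gene aldh1a2 held 20.6, 21.7 and 21.9 CPM at NF50, 11.5, 13 and 18 at NF56, 16.6, 17.4 and 19.6 at NF62 and 14.4, 12.4 and 11.9 at NF66, with a fall at NF56 (log2 fold change -0.61 ± 0.15, adjusted p = 0.0202) that left NF56 replicate 3 the highest of its stage. The degradation gene cyp26b1 read 51.3, 55.7 and 50.9 CPM at NF50, 63.6, 52.6 and 64.4 at NF56, 35.8, 33.1 and 32.3 at NF62 and 32.2, 23.7 and 23.8 at NF66 and fell at NF62 (log2 fold change -0.84 ± 0.12, adjusted p = 0.000853). Its relatives cyp26a1 and cyp26c1, also degradation genes, did not fall at that step. In unscaled TPM cyp26a1 held 4.22 to 4.92 at NF56 and 5.56 to 6.17 at NF62. For cyp26c1 these values were 11.47 to 17.24 and 17.11 to 33.13. The receptor gene rara, at 9.49 to 21.9 CPM, and the receptor gene rarb, at 14.8 to 18.2 CPM, were not called in any comparison.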

How the data were processed

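Per the labels, the 12 libraries were made from total RNA. Expected counts from RSEM were deposited for 33875 gene models, and per the file headers their tables for each library also hold TPM, a signal per gene scaled for length and depth. Tools named in the submitters' processing notes, without a role, are RSEM, Bowtie, cutadapt, DESeq2 and CASAVA 1.8.2. The sources used here give neither the genome build nor the use of strand, and reads of overlapping or near-identical genes may be split in unknown ways and no coordinates are printed. Nonwhole values made up 53.7% of the expected counts, and they were rounded. Models were kept by filterByExpr by stage (minimum count 10, minimum total 15; 19584 models), scaled by TMM and fitted in edgeR 4.0.16 (R 4.3.3) with a mean per stage over all 12 libraries. Each contrast had an F test under the quasi-likelihood model, adjusted over all models after Benjamini and Hochberg, and the procedure was checked on simulated data.

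The members, region groups, other lists and named genes were chosen with earlier results of these data known. Named genes are a set chosen by region, the up to 6 largest rises and 6 largest falls past the threshold in each contrast with at least 1 CPM in the higher stage, and the member with the highest TPM in each group. Genes outside this rule are named to account for the members and were chosen after their values were seen. Some members and list genes are not reported here by name and stand only in the counts. Alternatives were DESeq2 1.42.0, RLE size factors, no filter, a filter of 1 CPM in 3 libraries, limma 3.58.1 on log2(TPM + 1), a replicate block, fits to only the stages compared, and each library left out. RefSeq names (UCB_Xtro_10.0) included 114 of the 119 member names and gave the neighbours.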

Additional observations from a re-analysis of the deposited data

How the results depend on the processing

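Of the genes that the naming rule gives, none changed sign under an alternative where either fit was past the threshold. Changes of sign with neither fit past it were counted as kept. Such changes occurred in the unscaled fit, as for en2 at NF66 against NF50 (0.16 there). At NF56 against NF50, 51 of the 90 members were below 0 in the main fit and 23 in the unscaled one. Their values kept their side of the threshold in 4154 cases, dropped below it in 244 and passed it in 65. With each library left out in turn, the members called higher and lower numbered 2 to 8 and 5 to 10 at NF56 against NF50, 3 to 7 and 20 to 34 at NF62 against NF56, 0 and 0 to 2 at NF66 against NF62, and 4 to 8 and 39 to 47 at NF66 against NF50; 50 to 61 differed at any stage. For all models the ranges were 641 to 1377 and 893 to 1683, 1343 to 2056 and 1108 to 1855, 38 to 261 and 75 to 310, and 2819 to 3664 and 3074 to 3823, in the same order.

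The unscaled limma fit called 3 members higher and 0 lower at NF56 against NF50 (all models 315 and 123), 2 and 1 at NF62 against NF56 (171 and 291), 19 lower at NF66 against NF50 (972 of all models) and 31 at any stage (3313); at NF66 against NF62 it called 1 and 2 of all models. Fits to only the stages compared called 14 members lower at NF56 against NF50, 8 higher at NF62 against NF56 and 4 higher at NF66 against NF50, and 0 and 4 of all models at NF66 against NF62. At that last step DESeq2 called 1 member lower and 623 and 743 of all models, and no filter left 175 and 188. Without NF56 replicates 2 and 3 and NF62 replicate 2, chosen after seeing the data, members numbered 1 and 1 at NF56 against NF50 (all models 181 and 215) and 1 and 9 at NF62 against NF56 (308 and 386), and all models 9 and 9 at NF66 against NF62. The cause was not tested, but that fit holds fewer samples.

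The labels do not say what a replicate number shares. Deviations from the stage mean correlated at 0.447 to 0.638 in the 9 same-numbered pairs of replicates 2 and 3 and at -0.181 to 0.0912 in the 6 of replicate 1, so the samples were not treated as paired, since not every pair was above 0.1. Of the 11 libraries whose number occurs at another stage, 7 correlated best with their own number, a hint from the data. The replicate block ended 4 of the 102 member calls, those of hoxb2 at NF56 against NF50 and of gbx1, lhx8 and rax at NF66 against NF50. With the replicate block 10 members were higher at NF56 against NF50, 8 higher at NF62 against NF56 and 3 lower at NF66 against NF62, and of all models 2554 and 2889, 3033 and 2868, and 1008 and 1004 were called at the 3 steps. Depth limits the posterior Hox genes, many of which have a few counts in a library.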
